A study of Caenorhabditis elegans with 2 samples.

Results

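Of 4944 thresholded NHR-23 binding peaks, 610 (12.3%) met a rule for being strong in biological replicate 1 only. They were selected on the authors' signal value, as the thresholded peaks whose summit fell inside one of the 4944 strongest peaks of the replicate 1 list and inside none of the 4944 strongest of the replicate 2 list. By the same rule 3332 peaks were shared by both top lists, 875 were strong in replicate 2 only and 127 were in neither. The data are chromatin immunoprecipitation sequencing (ChIP-seq) of eGFP-tagged NHR-23 from whole Caenorhabditis elegans of both sexes at the L3 larval stage, age not stated. Both replicates came from strain OP43, with the unc-119(ed3) allele on chromosome III and the insertion wgIs43 targeting nhr-23, and formed 1 group. The control named in the labels was not analysed here. A peak bound in few cells of the animal and a peak bound weakly in many cannot be told apart in such a sample.

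NHR-23 is the worm member of the ROR family of nuclear hormone receptors, and larvae that lack it fail to molt. It acts in the epidermis, where it drives genes of the cuticle and its remodelling in pulses tied to each larval stage. Receptors of the family bind as monomers to a half-site, a short word preceded by an A/T-rich stretch. GAGAGA is a repeat of the kind found in many open promoters of the worm and other animals.

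The sequences at the summits are shown first because the strongest members already differed in what they held. Each is the plus strand of WBcel235 (ce11), the summit base with 50 bp on each side, 101 bases in all, read from the RefSeq genome; capitals mark GAGAGA or the half-site (AGGTCA or GGGTCA), on either strand. The first 3 are the strongest members. They lie at chrII:5844987-5845087 near ZK1248.17, chrV:9243736-9243836 upstream of glo-4 and chrX:8231995-8232095 upstream of K02A6.3.
ZK1248.17: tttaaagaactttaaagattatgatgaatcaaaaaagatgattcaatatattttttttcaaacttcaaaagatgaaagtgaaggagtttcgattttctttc
glo-4: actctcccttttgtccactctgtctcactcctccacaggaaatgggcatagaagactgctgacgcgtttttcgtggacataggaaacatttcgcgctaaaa
K02A6.3: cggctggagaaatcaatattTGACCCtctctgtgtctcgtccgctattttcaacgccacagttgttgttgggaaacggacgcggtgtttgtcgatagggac
The next are 2 strong members with GAGAGA, at chrII:5322137-5322237 (vhp-1) and chrX:15704700-15704800 (nhr-48), and a further one with a half-site, at chrX:12655339-12655439 (C02B4.3).
vhp-1: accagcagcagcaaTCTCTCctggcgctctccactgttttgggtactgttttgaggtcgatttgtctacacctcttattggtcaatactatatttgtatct
nhr-48: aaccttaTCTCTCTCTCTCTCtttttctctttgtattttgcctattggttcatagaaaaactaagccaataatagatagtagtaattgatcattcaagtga
C02B4.3: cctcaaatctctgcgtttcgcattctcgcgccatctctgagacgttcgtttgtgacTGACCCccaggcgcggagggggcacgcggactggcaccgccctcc
For contrast, the shared summit of rank 2 in the thresholded list lay at chrIII:7814884-7814984 within egl-5, a Hox gene, and held neither word.
egl-5: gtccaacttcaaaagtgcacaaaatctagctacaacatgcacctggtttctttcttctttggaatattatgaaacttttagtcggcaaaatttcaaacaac
The window near ZK1248.17 was AT-rich, with 22.8% G and C, against 47.5% at glo-4 and 64.4% at C02B4.3. The glo-4 window held none of the 10 motifs searched.

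The rule fixes that no member's summit lies in a top replicate 2 peak, so what replicate 2 held at the members is a description. Most had a replicate 2 peak of lower rank, and some lay beside a top one. The summits of 520 members (85.2%, exact 95% interval 82.2 to 88) lay inside a replicate 2 peak below the limit and their intervals touched no top peak. Another 52 (8.52%, 6.43 to 11) had an interval that overlapped a top replicate 2 peak, with the summit outside it. In 17 of these a top replicate 2 summit lay within 50 bp, and the median distance to the summit of the overlapped peak was 167 bp. Some of the 52 also had a lower replicate 2 peak at their own summit, at ranks from 4955 to 19501. A further 16 (2.62%) overlapped a lower replicate 2 peak that missed the summit. The remaining 22 (3.61%, 2.27 to 5.41) overlapped no replicate 2 peak. Intervals throughout are Clopper-Pearson and cover counting error over peaks only, since depth is unknown and all peaks of a list come from the same libraries.

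Members were weak peaks of the thresholded list. Their thresholded signal had a median of 40.7 and ran from 34.2 to 147.5, against a median of 76.2 in shared peaks, and their median rank was 4098 of 4944. Within the replicate 1 list they ranked from 511 to 4943, with a median rank of 3066. Of the 537 members with a replicate 2 peak at the summit (88%), the replicate 2 rank ran from 4949 to 21611 with a median of 6266. In 256 of the 610 (42%) that rank was within 1.25 times the limit, in 135 (22.1%) between 1.25 and 1.5 times, in 93 (15.2%) between 1.5 and 2 times and in 53 (8.69%) beyond 2 times. These values follow from the rule and are given as a description. With top lists 1.5 times as long the rule left 230 peaks, and with the replicate 2 list alone taken 2 times as long it left 126.

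**Figure D1:**
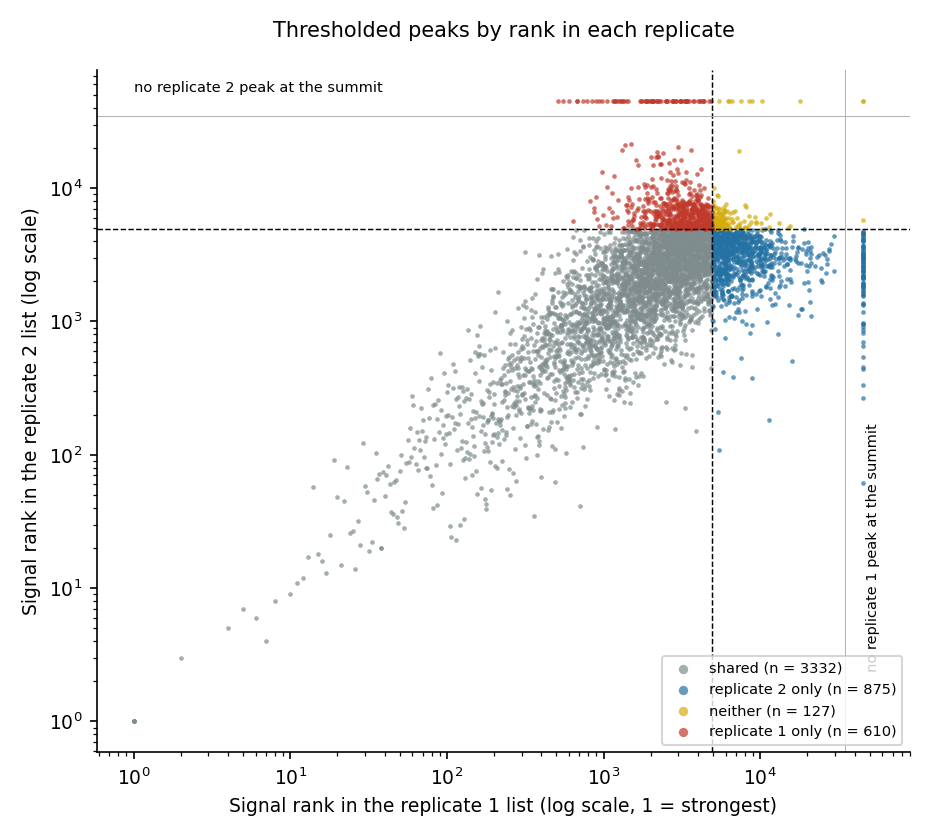
Each point is a thresholded peak, placed by its signal rank in the replicate 1 list (x axis, log scale) and in the replicate 2 list (y axis, log scale), with dashed lines at rank 4944 and peaks without a replicate peak at the summit set beyond the grey lines. The 610 peaks strong in replicate 1 only fill the block above the horizontal line and left of the vertical one, most of them close to the line, with 73 in the strip at the top.

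Peaks just inside and just outside the limits differed little in signal. The lowest members by replicate 1 signal were at daf-2 (17.81), zoo-1 (17.88) and mak-1 (17.9). Of the peaks in neither top list, the nearest below the limit were at M01F1.4 (17.76), car-1 (17.73) and K02B12.7 (17.71). Peaks strong in replicate 2 only came nearer, from replicate 1 rank 4946 on. On the replicate 2 side the members nearest the limit were at act-4 (20.45), pak-1 (20.43) and nex-1 (20.43), and the shared peaks nearest to it were at cpg-19 (20.53), ZK1128.1 (20.51) and H06I04.3 (20.5). daf-2 encodes the insulin receptor, zoo-1 a ZO-1 junction protein, pak-1 a p21-activated kinase and nex-1 an annexin.

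The strongest members for the most part had an interval that overlapped a top replicate 2 peak. Of the 12 with the highest thresholded signal, 10 overlapped a top replicate 2 peak and 2 overlapped no replicate 2 peak. Near ZK1248.17 the member had a thresholded signal of 147.5 (rank 437) and replicate 1 rank 547, while the overlapping replicate 2 peak, 310 bp wide with its summit 116 bp away, had rank 53. At K02A6.3 (thresholded signal 112.2, replicate 1 rank 742) the replicate 2 peak had rank 996, a width of 84 bp and a summit 17 bp away. So in these cases the summit missed a replicate 2 interval that was narrow or off centre. Among the 12, fln-2, which encodes a filamin, had thresholded signal 94.4 beside a replicate 2 peak of rank 1590 and 81 bp. Upstream of vhp-1, a phosphatase of stress-activated MAP kinases, the signal was 95.8 beside a replicate 2 peak of rank 891. The others of the 12 that overlapped a top replicate 2 peak were nearest cyp-36A1, C02B4.3, nhr-48, siah-1, homt-1 and F45D3.3, with signals from 88.7 to 108.8. Likewise, of the 8 members highest in replicate 1 among those with no replicate 2 peak at the summit, 6 overlapped a top replicate 2 peak, among them 1 in the 5′ UTR of R02D3.8 (replicate 1 rank 679) beside a replicate 2 peak of rank 1355. Over all 52 such members the replicate 2 top peak was 193 bp wide at the median, against a median of 324 bp in the whole top replicate 2 list. By the rule a summit had to miss these peaks, and a narrow interval is more easily missed, so this contrast is a description only.

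The 22 members without any overlapping replicate 2 peak were the clearest cases, and most stood alone. In 15 of the 22 the nearest replicate 2 summit was over 1000 bp away. The strongest was upstream of glo-4, which encodes a guanine nucleotide exchange factor needed for gut granules, at chrV:9243666-9243871. It had thresholded signal 129.8 (rank 591) and replicate 1 signal 56.4 (rank 675), and the nearest replicate 2 summit was 23163 bp away. The second, at chrI:7961855-7962016, lay 133 bp upstream of rbg-2, a Rab3 GTPase-activating protein, with thresholded signal 103.1 and replicate 1 signal 63.2, the highest of all members (rank 511). Its nearest replicate 2 summit was 1491 bp away.

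Next in signal came a peak 114 bp upstream of a start of pptr-2, a regulatory subunit of protein phosphatase 2A, with thresholded signal 81.5 and replicate 1 rank 1142. At knl-1, a kinetochore scaffold, the summit lay 160 bp upstream with signal 61.5. At F07E5.5 a peak of signal 54.1 (replicate 1 rank 3132) lay 123 bp upstream of the start, and no replicate 2 summit was found within 136543 bp. Others lay near tps-1, Y48C3A.20, cpn-4, acbp-8, brc-1 (the worm BRCA1), sec-31 (a coat protein of secretory vesicles), lex-1 and dnj-1, with thresholded signals from 34.4 to 76.9. Those near tps-1 and acbp-8 were not isolated, with a top replicate 2 summit 184 and 109 bp away. Of the 22, 14 were in a promoter window (63.6%, 40.7 to 82.8), none in coding sequence or a 3′ UTR (0 to 15.4%), and 6 held GAGAGA (27.3%, 10.7 to 50.2). Among all thresholded peaks these shares were 64.4%, 5.22% and 26.5%, each inside the interval given.

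Other members had a replicate 2 peak, but a faint one. The largest gap in rank was 655 bp upstream of psf-3, a subunit of the GINS replication complex, with signal 38.4 (rank 1506) in replicate 1 and 3.29 (rank 21611) in replicate 2. Within dnj-20, which encodes a DnaJ chaperone, a summit had signal 40.2 (rank 1374) in replicate 1 and 3.44 (rank 21025) in replicate 2. Upstream of hmp-1, the α-catenin of epidermal junctions, the ranks were 2226 and 17488. At the shared start region of sax-1 and R11G1.2 they were 2190 and 18767. F39F10.4, F56C11.5, T22C1.1 and a 3′ UTR summit in ncl-1 completed the 8 widest gaps, with replicate 2 ranks from 18439 to 20330. At ncl-1 the interval also overlapped a top replicate 2 peak, of rank 2771. Signal values of different lists are not on a common scale, so only the ranks are compared.

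At 13 members (2.13%, 1.14 to 3.62) the 31 bases at the summit occurred more than once in the genome, against 1.14% (0.808 to 1.56) of shared peaks and 0.914% of peaks strong in replicate 2 only. The highest copy numbers were 87 near cids-2, 78 near snpn-1 and 21 within brc-1, and psf-3 had 3. How reads of repeated sequence were placed is not given in the sources used here, and its part in these 13 was not tested.

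Over all ranks, members lay less often between genes and less often before a gene start than shared peaks, and most of these differences shrank or turned among peaks of like signal, as given further on. A promoter window, reaching 1500 bp before and 500 bp past a protein-coding transcript start, held 360 of 610 members (59%, 55 to 62.9). It held 66.7% (65.1 to 68.3) of shared peaks, 59.9% (56.6 to 63.2) of peaks strong in replicate 2 only and 64.4% of all thresholded peaks, and such windows cover 39.7% of the genome. The difference from shared peaks was −7.73 percentage points (−12.1 to −3.47), and that from peaks strong in replicate 2 only was −0.869 (−6.05 to 4.29). No test was made of these differences, because 1 group of 2 replicates allows none over samples. Summits outside protein-coding genes, called intergenic, were 59.3% of members and 69.7% of shared peaks. Upstream of the nearest start lay 63.1% (59.1 to 67) of members, 75.8% (74.3 to 77.2) of shared peaks and 69% (65.8 to 72.1) of peaks strong in replicate 2 only. Summits in the windows of 2 or more genes at once were 14.3% of members and 22.8% of shared peaks.

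**Figure D2:**
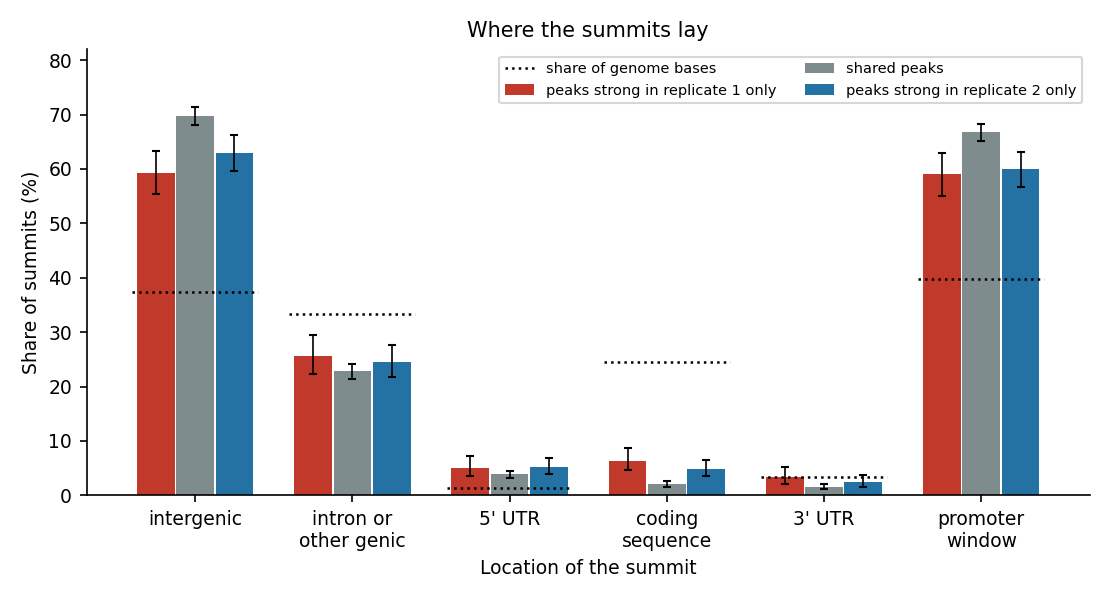
Bars give the share of summits (y axis, percent) in each location (x axis) for the 3 sets, error bars the exact 95% interval, and dotted lines the share of genome bases. Shared peaks were the most intergenic at 69.7%, while coding sequence held 6.39% of members and 2.07% of shared peaks against 24.6% of the genome.

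Over all ranks, a larger share of members than of shared peaks lay in coding sequence or a 3′ UTR. Coding sequence held 39 members (6.39%, 4.59 to 8.64) against 2.07% (1.61 to 2.61) of shared peaks and 4.8% of peaks strong in replicate 2 only, and 3′ UTRs held 21 (3.44%, 2.14 to 5.21) against 1.59%. As 1 class, coding sequence or 3′ UTR held 60 members (9.84%, 7.59 to 12.5), 3.66% of shared peaks and 5.22% of all thresholded peaks. That is 6.17 points above shared peaks (3.82 to 8.89) and 2.64 points above peaks strong in replicate 2 only (−0.318 to 5.74), yet below the 27.9% of the genome that such sequence makes up. Of the 127 peaks in neither top list, 10.2% (5.56 to 16.9) lay there, so the share is not particular to members. Over 500 bp downstream of the nearest start lay 25.2% of members and 18.2% of shared peaks.

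The strongest members in coding sequence were in C36E8.4 near tbb-2 (thresholded signal 65.1), in lsm-3, an Sm-like RNA-binding protein (50.5), and in rpb-7, a subunit of RNA polymerase II (49.2). Further down the list came daf-15, the worm Raptor (45), at 20 bp from its start, and anmt-1 (42.3). These were picked by signal within the class after its share was known. In 3′ UTRs the strongest were in T28F4.4 or T28F4.8, which overlap (68.7), nono-1 (54.8) and nra-1 (54.7), the last with replicate 1 rank 1170 and replicate 2 rank 12447.

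**Figure D3:**
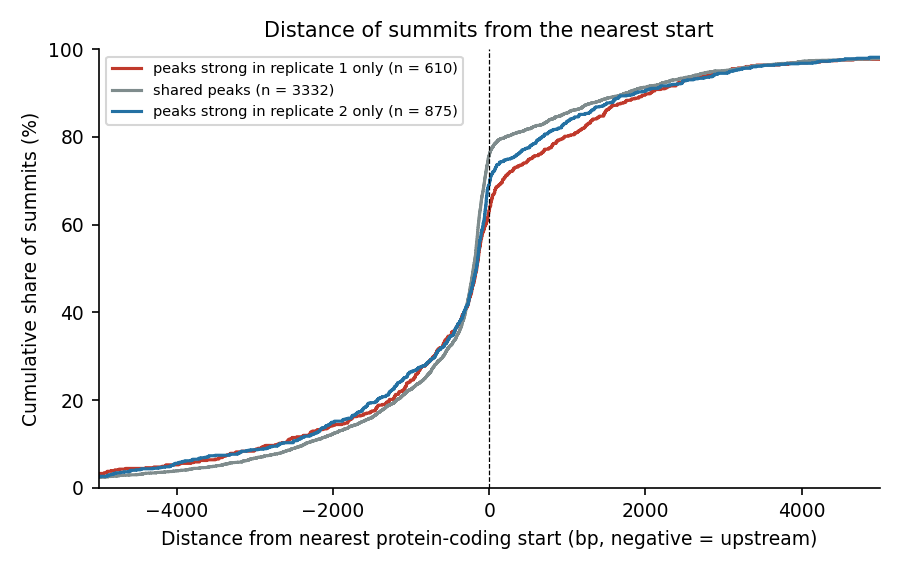
Lines give the cumulative share of summits (y axis, percent) by distance from the nearest protein-coding start (x axis, bp, negative upstream) for the 3 sets. The line of the members crosses the start at 63.1%, below the 75.8% of shared peaks and the 69% of peaks strong in replicate 2 only.

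Because shared peaks were stronger, the same shares were set side by side at like signal. In ranks 2473 to 4944 of the thresholded list, with 566 members and 971 shared peaks, promoter windows held 58.5% and 61.3%, a difference of −2.8 points (−7.99 to 2.37). In ranks 3709 to 4944, with 410 members and 186 shared peaks, the order turned, with 59.5% of members and 54.8% of shared peaks, a difference of 4.67 points (−4.13 to 13.5). In ranks 2473 to 3708 between these, they held 55.8% of 156 members and 62.8% of 785 shared peaks. The order thus turned in the weakest ranks alone among the lower ones, and the interval of the wider range spans both 0 and the −7.73 points of all ranks. Coding sequence or 3′ UTR held 10.2% of members and 6.18% of shared peaks in the wider range, a difference of 4.07 points (1.15 to 7.21), and 11% and 6.99% in the narrower one, a difference whose interval spans 0 (3.99, −1.48 to 8.69). Summits upstream of the nearest start made up 62.4% of members and 70% of shared peaks in the wider range (−7.66 points, −12.7 to −2.66), but 62.7% and 65.1% in the narrower one (−2.37, −10.8 to 6.33). For intergenic summits the difference was −4.21 points (−9.36 to 0.918) in the wider range and 1.2 (−7.51 to 10.1) in the narrower one, where 59.3% of members and 58.1% of shared peaks were intergenic. For summits over 500 bp downstream of the nearest start it was 3.58 points (−0.906 to 8.17) and then −2 (−10.1 to 5.66). For summits in the windows of 2 or more genes it was −0.96 points (−4.66 to 2.91) and then 5.69 (−0.486 to 11.1). In the narrower range each of these intervals spans 0.

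**Figure D4:**
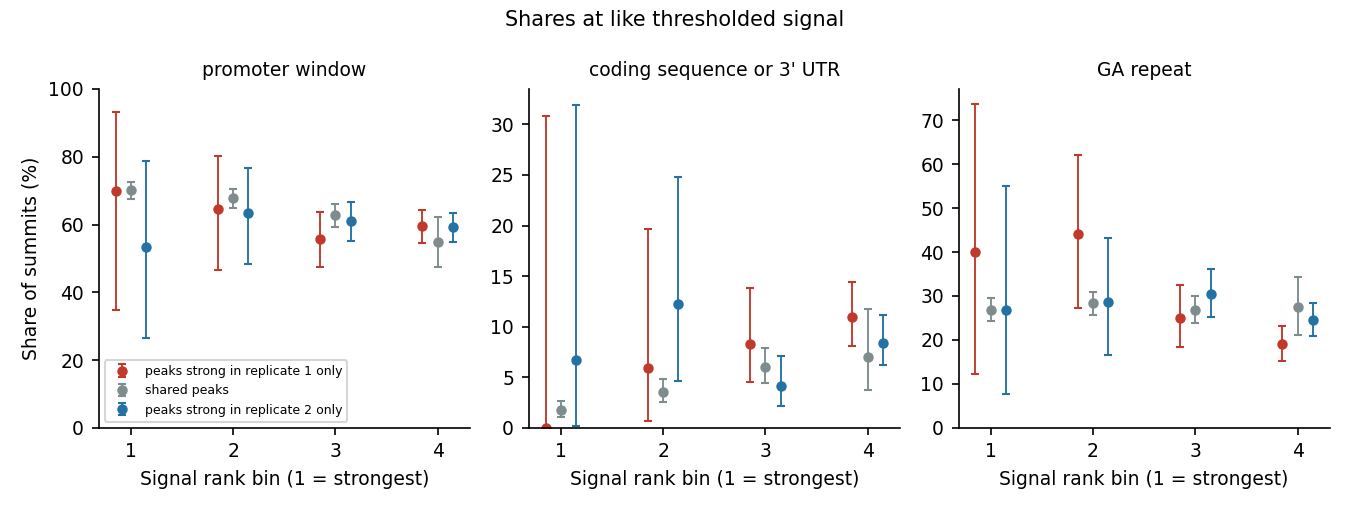
Points give the share of summits (y axis, percent) in promoter windows, in coding sequence or 3′ UTRs and with a GA repeat, by 4 equal bins of the thresholded signal rank (x axis, 1 = strongest), with exact 95% intervals. Bin 1 holds 10 members and bin 4 holds 410; in bin 4 the promoter shares of members and shared peaks are 59.5% and 54.8%, and those with GAGAGA 19% and 27.4%.

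GAGAGA was less common at members than at shared peaks over all ranks and among the weaker peaks, but not among the stronger ones. It was in 136 of 610 windows of 101 bases at members (22.3%, 19.1 to 25.8), 27.4% (25.9 to 28.9) at shared peaks, 26.7% (23.8 to 29.8) at peaks strong in replicate 2 only and 26.5% of all thresholded peaks. Of the 127 peaks in neither top list, 20.5% (13.8 to 28.5) held it. Windows 500 bp to either side of the members held it in 6.97%, and 5.18% of all genome windows of that length did. The difference from shared peaks was −5.11 points (−8.7 to −1.28), −6.31 (−10.7 to −1.79) in ranks 2473 to 4944 and −8.39 (−16.3 to −0.88) in ranks 3709 to 4944. In ranks 2473 to 3708 the shares were 25% and 26.9%. The order was the other way in ranks 1237 to 2472, with 44.1% of 34 members (27.2 to 62.1) against 28.3% of shared peaks (25.7 to 31), and in ranks 1 to 1236, with 40% of 10 members (12.2 to 73.8) against 26.9%. With a window of 25 bp to each side it shrank to −0.7 points (−3.67 to 2.57), and with top lists 0.5 times as long to −0.3 (−4.31 to 3.85). It was −4.68 (−10 to 1.4) with top lists 1.5 times as long and −2.8 (−10.2 to 5.8) outside 2 times as many top replicate 2 peaks, and both intervals span 0. The vhp-1 and nhr-48 windows printed above show the range, from a single copy to a run of overlapping copies.

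The half-site of nuclear receptors, AGGTCA or GGGTCA, was in 60 member windows (9.84%, 7.59 to 12.5), 11.1% of shared windows and 11% of all thresholded windows. The members' flanks held it in 4.18% and all genome windows in 3.87%. Its reversed control, ACTGGA or ACTGGG, was in 5.74% of member windows and 5.9% of their flanks. Half-site shares of members and shared peaks differed by −1.27 points (−3.78 to 1.57). The word TGCGTCTC, which can share its last letters with the reverse complement of GAGAGA, was in 42 member windows (6.89%, 5.01 to 9.19) and 0.574% of their flanks, and in 9.24% of shared windows. All motifs were searched on both strands.

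**Figure D5:**
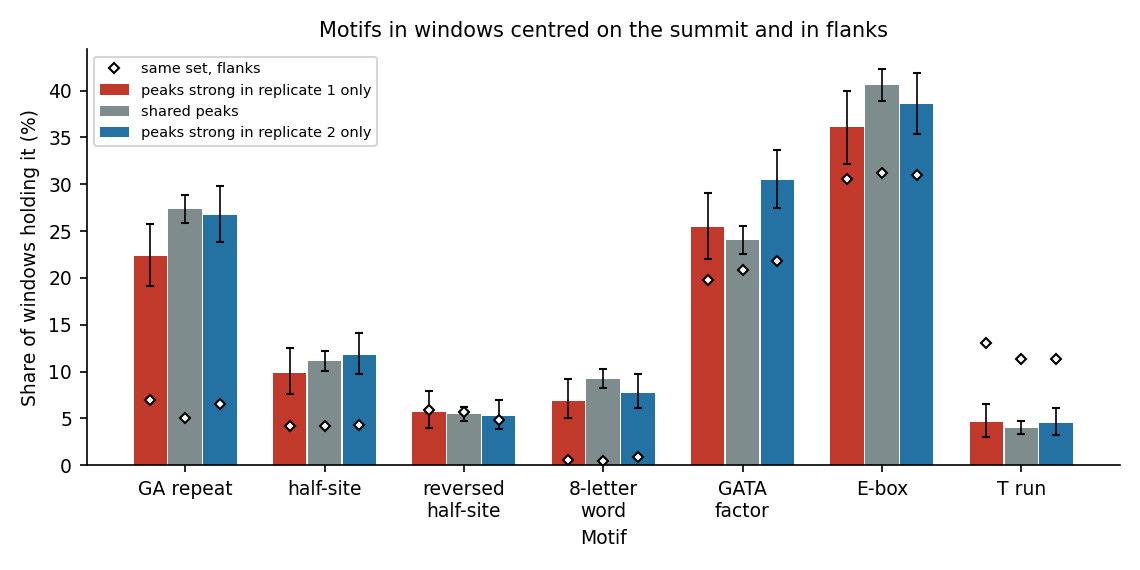
Bars give the share of windows centred on the summit that hold each motif (y axis, percent; x axis, motif) for the 3 sets, with exact 95% intervals, and diamonds the share in the flanks of the same set. At members the GA repeat reaches 22.3% against 6.97% in flanks, and the reversed half-site 5.74% against 5.9%.

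GATA-factor sites (A or T, then GATA, then A or G) were in 25.4% of member windows, 24% of shared windows and 30.5% of windows strong in replicate 2 only. E-boxes (CANNTG, bound by basic helix-loop-helix factors) were in 36.1% of member windows and 40.6% of shared ones. A run of 8 T (TTTTTTTT) was in 4.59% of member windows against 13.1% of flanks, and the splice-acceptor word TTTCAG in 6.23% against 17.6%. At shared peaks these values were 3.99% against 11.4% and 4.2% against 19.6%. The AP-1 word TGANTCA was in 3.61% of member windows, 3.2% of their flanks and 2.85% of all thresholded windows. For the grainyhead word AACCGGTT the shares were 0.656% (4 windows), 0.41% and 0.87%. Mean G and C content was 42.1% (SD 8.11 over 610 windows) at members, 45.1% (SD 7.41) at shared peaks and 35.5% in the members' flanks. In ranks 3709 to 4944 it was 41.9% at members and 42.6% at shared peaks.

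Along the genome the members were spread over all 6 chromosomes. Chromosome X held 133 (21.8%, 18.6 to 25.3) against 20.6% of shared peaks, 17.9% of peaks strong in replicate 2 only and 17.7% of the genome's length. Density ran from 4.35 members per Mb on chromosome V to 7.51 on X. For all thresholded peaks it was also lowest on V, at 36.8 per Mb, with 56.3 on X and 60.3 on III. The central 50% of each chromosome held 66.2% (62.3 to 70) of members and 61.5% (59.8 to 63.2) of shared peaks. Another thresholded summit lay within 1000 bp of 130 members (21.3%, 18.1 to 24.8), against 17.2% of shared peaks. The nearest other peak was shared for 67% of members, where shared peaks were 67.4% of the list. Within 100 bp of a tRNA gene lay 18 members (2.95%, 1.76 to 4.62) and 2.1% of shared peaks, and within 100 bp of a snoRNA gene 3 members (0.492%) and 1.86%.

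By promoter window the members reached 443 of 19973 protein-coding genes (2.22%). Shared peaks reached 2879 (14.4%), peaks strong in replicate 2 only 685 (3.43%) and all thresholded peaks 3877 (19.4%). Of the 443, 94 also had a shared summit, and 338 had no other thresholded summit. Neighbouring genes can share a peak, and many worm transcripts are trans-spliced, so annotated starts need not be the true ones. Of 36 gene lists, 18 held a gene reached by a member. The values of members below are to be read against 2.22%, and those of each other set against its own share of all genes.

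Genes of developmental timing held members most often among the lists, with 3 of 13 heterochronic genes (23.1%), and all 3 also had shared summits in the window. This list was singled out as the highest of 36 after the values were seen. Thresholded summits of any set reached 69.2% of it, against 19.4% of all protein-coding genes. lin-42, the worm Period and an oscillating regulator of the molting cycle, had a member 428 bp upstream of a start with thresholded signal 40.2, replicate 1 rank 3049 and replicate 2 rank 7179. In the same window lay shared summits of signal 86.8 and 68.1 and 2 summits strong in replicate 2 only, of signal 48.6 and 41.5. kin-20, the casein kinase partner of Period, had a member at signal 82.5 (replicate 1 rank 789) whose interval overlapped a replicate 2 peak of rank 2369. Members of dre-1, an F-box protein that times larval transitions, numbered 3 within the gene, with signals of 49.5, 36.1 and 35.2, beside a shared summit of 92.6. Shared peaks reached 8 of the 13 (61.5%).

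In the lists of cuticle and molting genes, between 0 and 7.69% of the genes had a member in the promoter window, apart from the molting-cycle regulators, where 1 of 10 did (lin-42). None of 6 furrow collagens, 24 molting genes, 17 precuticle matrix genes, 12 genes of collagen processing or 12 epidermal transcription factors had a member in the promoter window. At the 2.22% of all genes, lists this small can hold none, so these zeros show no absence particular to them. Shared summits, which reached 14.4% of all protein-coding genes, lay in the window of all 6 furrow collagens and of 8, 9, 5 and 3 genes of the other lists. Of 13 other cuticle collagens, 1 was reached: dpy-13, with a summit 83 bp inside the gene, signal 34.9 and no other thresholded summit. Numbered col genes were reached in 5 of 156 (3.21%), namely col-88, col-172, col-10, col-42 and col-167, with signals from 34.5 to 47.5. col-88 and col-172 each had 2 members and no shared summit. cut-6 was the only cuticlin of 35 (2.86%), with replicate 1 rank 3150 and replicate 2 rank 11038. nas-23 was the only one of 36 astacin proteases (2.78%), at signal 48.6.

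Inside the gene, rather than in the promoter window, members lay in 2 of the 17 precuticle matrix genes (11.8%), noah-1 and noah-2, where 245 of the 19973 protein-coding genes (1.23%) held one. This pair was chosen after its values were seen. noah-1, a component of the apical matrix, had 2 in its coding sequence, with replicate 1 ranks of 2074 and 2808 and replicate 2 ranks of 15048 and 8460. noah-2 had 2 outside its coding sequence, with replicate 1 ranks of 1657 and 4439, and the first overlapped a top replicate 2 peak. Both genes also had a shared summit in the promoter window. Of the 245 genes, 13 had several, among them daf-16, the FOXO factor of insulin signalling, unc-33, a CRMP protein of axon growth, and ncl-1, a repressor of ribosome production.

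Translation and protein-folding genes were reached by members in small numbers, in shares above 2.22% for the lists of ribosomal proteins, translation factors and chaperones. Thresholded summits of any set reached 88.1%, 76.7% and 75% of these 3 lists, against 19.4% of all protein-coding genes. The lists were thus reached often by thresholded peaks in general, and their shares are not particular to members. Members reached 3 of the 84 genes listed as ribosomal proteins (3.57%) and shared peaks 70 (83.3%). The 3 were rpl-1 (signal 57.3, beside a shared summit of 147.8), rps-7 (43.8) and rpa-2 (39), and the last 2 had no other thresholded summit. rpa-2 at this place encodes a subunit of replication protein A, so the 3.57% counts a gene that is not ribosomal. Of 30 translation factors 2 (6.67%) were reached, eif-3.K (38.4) and eif-3.G (36.4), against 19 by shared peaks. hsp-90 was the only one of 20 chaperone genes (5%), with a member of signal 37.4 at 19 bp from the start beside a shared summit of signal 235.8. No proteasome subunit of 33 and no vacuolar ATPase gene of 20 was reached, against 24 and 11 by shared peaks. Shared peaks reached 14.4% of all genes, while at 2.22% lists of this size can hold none. mrpl-53 was the only one of 70 mitochondrial ribosomal protein genes.

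Nuclear receptor genes stood close to the background of 2.22%. They were reached in 6 of 274 (2.19%) by members, in 39 (14.2%) by shared peaks and in 19 (6.93%) by peaks strong in replicate 2 only. Over all protein-coding genes the last 2 sets reached 14.4% and 3.43%. Of the 6 reached by members the strongest was nhr-46, with thresholded signal 51 and replicate 2 rank 4981, close to the limit. The next were nhr-168 (43.7), nhr-129 (38.7) and nhr-86 (38.5). Of 63 ceh homeobox genes ceh-43 was reached, at signal 37.3. Hox genes and Wnt or Notch genes had no thresholded summit in their promoter windows.

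Other cell types and lipid genes gave single cases. elo-4, a fatty acid elongase, was 1 of 19 genes of fatty acid synthesis (5.26%), with signal 45. hmp-1 was 1 of 17 genes of epidermal junctions and attachment. act-4, an actin, was 1 of 14 body wall muscle markers, at signal 36. No intestinal marker of 15, pharyngeal marker of 8, neuronal marker of 23 or germ line marker of 17 was reached. At the 2.22% of all genes, lists this small can hold none. Shared peaks reached 0, 0, 2 and 1 genes of these lists, so the low counts are not particular to members. Chemoreceptor genes, the largest family, were reached in 2 of 1266 (0.158%), srw-145 (46.3) and sru-35 (39.3), and C-type lectins in 2 of 237 (0.844%), clec-87 (41.6) and clec-53 (41.5). The neuropeptide gene nlp-76 was 1 of 102, with signal 48.5.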

How the data were processed

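Per the deposited text files, peaks were made for each replicate from its alignments with a control and for the pooled alignments, and the authors derived the thresholded list from these. For the aligner, peak caller, threshold and versions, the sources used here give nothing. The deposited signal value of each peak, the peak caller's own measure, was used only to rank peaks within its list; the replicate lists held 30000 and 27191 peaks, without read counts. The summit was the deposited offset added to the peak's start.

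Coordinates are ce11 and 1-based. Genes came from Ensembl release 115 on WBcel235, sequence from RefSeq. A location class was given by the first that applied of coding sequence, 5′ UTR, 3′ UTR, intron or other part of a protein-coding gene, and intergenic, without regard to strand; distances are to the nearest protein-coding transcript start. Intervals of differences join both exact intervals by Newcombe's method. Functions were tested on simulated data. The members, gene lists and motifs were chosen with earlier results of these data known. Named peaks are the 12 strongest members, the 8 highest in replicate 1 without a replicate 2 peak at the summit and the 8 widest rank gaps. Also named are 3 on each side of each limit and up to 4 for each gene list. Outside the replicate 1 limit the 3 were peaks in neither top list, and inside the replicate 2 limit shared peaks. Others were chosen after their values were seen. Python 3.11.15, numpy 2.4.6 and scipy 1.17.1 were used.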

Additional observations from a re-analysis of the deposited data

How the results depend on the processing

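No paired analysis was possible because the 2 replicates form 1 group, and depth is unknown. The results of the report were computed again under other settings, with these effects beyond their intervals (counts, beyond 1.5 times); the causes were not tested unless the setting is itself a wider or narrower window. The number of peaks, 610, fell to 230 with 1.5 times as many top peaks and to 126 when peaks had to lie outside 2 times as many top replicate 2 peaks, and the genes reached fell from 443 to 173 and 99. With those settings the half-site share was 6.96% and 6.35%. With 0.5 times as many top peaks the GAGAGA share was 27%, its difference from shared peaks −0.3 points and the share in coding sequence or 3′ UTR 6.6%. Outside 2 times as many top peaks the latter was 12.7%, 9.04 points above shared peaks. Promoter windows from 500 and 3000 bp upstream held 40.2% and 73.3%, and from 500 bp 276 genes were reached. Motif windows of 25 and 100 bp to each side gave GAGAGA shares of 14.4% and 34.9% and half-site shares of 5.08% and 16.4%, and at 25 bp the GAGAGA difference was −0.7 points. Comparison at like signal, added after seeing the data, moved the promoter difference to −2.8 points in ranks 2473 to 4944 and reversed it to 4.67 in ranks 3709 to 4944.

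Leaving out a replicate keeps only 1 part of the rule, so the values are not a range for peaks strong in replicate 1 only. Without replicate 1 the set was all thresholded peaks outside the top replicate 2 list, 737 peaks reaching 546 genes. Their shares were 59.4% for promoter windows, 22% for GAGAGA, 9.36% for the half-site and 9.91% for coding sequence or 3′ UTR. Without replicate 2 it was all thresholded peaks inside the top replicate 1 list, 3942 peaks reaching 3228 genes. Their shares, in the same order, were 65.6%, 26.6%, 10.9% and 4.62%. Without replicate 1 the differences from peaks inside the top replicate 2 list were −5.89, −5.28 and 5.51 points for promoter, GAGAGA and coding sequence or 3′ UTR; without replicate 2 no shared set exists and they have no value. The ce10 lists gave 614 peaks.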
